A study of Mus musculus with 7 samples.

Results

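The regions described here were leptomeningeal regions of interest from the brains of PDAPP mice, sorted by how many nuclei each one held. They were chosen by their nuclei count. Within each mouse, regions above that mouse's leptomeningeal median were taken as nuclei-rich and regions below it as nuclei-poor, so 41 rich and 41 poor regions were obtained from all 82 leptomeningeal regions with values, of 166 regions with values in the series. No leptomeningeal region fell on its mouse's median. All 7 mice were PDAPP mice aged 23 to 26 months, transgenic animals that express a mutant human amyloid precursor protein and deposit β-amyloid in brain and vessel walls, and all were injected subcutaneously for 3 months. Of these, 3 mice received control IgG (IgG2a isotype) at 50 mg/kg in 2 injections per week, and 4 mice received 3D6, an antibody against the amino terminus of β-amyloid (IgG2b isotype), at 25 mg/kg in 1 injection per week. Isotype, dose and schedule therefore differ together with the antibody and cannot be told apart from it. Circles of 100 μm around vascular amyloid were selected on β-amyloid and laminin staining, and the GeoMx digital spatial profiler released oligonucleotide tags from the antibodies bound inside each circle and counted them. The panel held 25 target proteins, 3 housekeepers and 3 negative-control antibodies, which bind nothing specifically in mouse tissue and measure the background of each region.

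The leptomeninges are the membranes over the brain surface, and the vessels that run in them carry a coat of smooth muscle, an endothelium and a population of resident macrophages. When amyloid accumulates in these walls and is bound by antibody, Fc receptors on macrophages can be engaged, and leukocytes and matrix can accumulate around the vessel. A region with more nuclei holds more cells, but the count does not say of which type, and in a 100 μm circle a higher protein signal can come from more cells that carry the protein or from more protein per cell. These 2 possibilities cannot be told apart in any value below.

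The split separated regions that differed modestly within a mouse and greatly between mice. In IgG mouse 37 the poor regions held 6 to 10 nuclei and the rich ones 12 to 19, and in IgG mouse 49 the poor regions held 9 to 17 and the rich ones 18 to 36. In IgG mouse 29 the poor regions held 48 to 94 nuclei and the rich ones 100 to 139. In 3D6 mouse 77 the ranges were 10 to 23 and 24 to 40 nuclei. A rich region of one mouse could thus hold fewer nuclei than a poor region of another. In 3D6 mouse 81 the poor regions held 13 to 28 nuclei and the rich ones 33 to 64, and in 3D6 mouse 83 they held 30 to 36 and 37 to 49. In 3D6 mouse 72 the ranges were 19 to 110 and 113 to 141. The last poor and the first rich region were thus separated by 1 nucleus in mice 49, 77 and 83, by 2 in mouse 37, by 3 in mouse 72, by 5 in mouse 81 and by 6 in mouse 29. The ratio of the median nuclei count of rich to that of poor regions ran from 1.18 in IgG mouse 29 to 2.11 in IgG mouse 37. Mice 29 and 72, which were read out together in the third run, held the most nuclei per region, with medians of 97 and 111.5 against 11 to 36.5 in the other 5 mice. Their scan names alone carry the label scan2, so read-out run and scan cannot be told apart. In each run the 3D6 mice had the higher medians. These were 30.5 and 36.5 against 17.5 in run 1, 23.5 against 11 in run 2 and 111.5 against 97 in run 3.

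**Figure D1:**
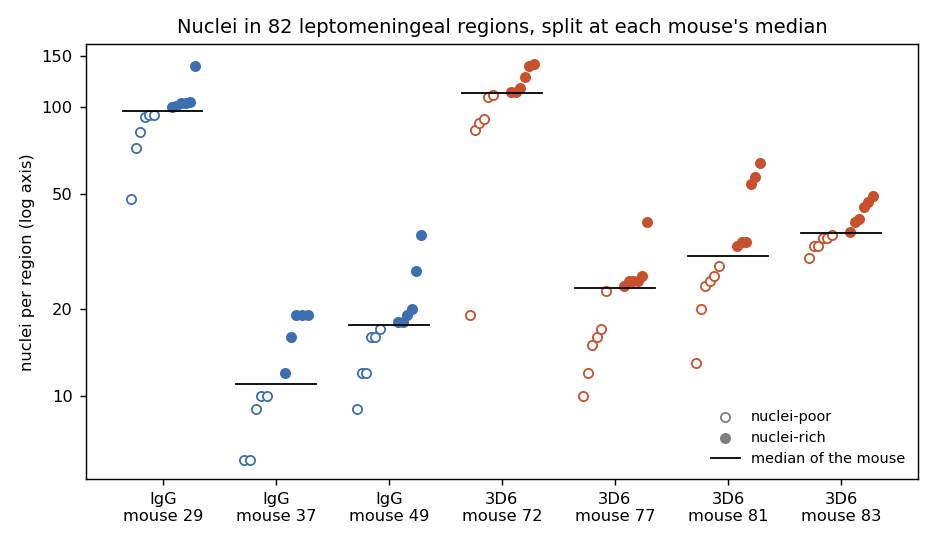
Nuclei per leptomeningeal region (log axis) in each of the 3 IgG mice (blue) and 4 3D6 mice (orange), with open points for nuclei-poor regions, filled points for nuclei-rich regions and a black line at the median of the mouse. The medians of mice 29 and 72 lie far above those of the other mice, although single regions overlap, so the classes are defined within a mouse only.

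The total count of a leptomeningeal region ran from 3665 to 90845 with a median of 15513. Smooth muscle actin (SMA), the contractile protein of the arterial wall, stood at 392 times the background on average over the 82 regions (geometric mean), and the endothelial protein CD31 at 21.7 times, so the vessel wall was present as labelled. Of the 25 targets, 14 exceeded 2 times the negative controls and 7 lay below them, among them PD-1, Ki-67, CD4, CD163, CD28 and FOXP3, for which a ratio reads differences within background. The authors' warning for few nuclei was carried by 8 rich and 18 poor regions, with all 10 regions of IgG mouse 37 among them. The 8 rich ones were 5 of IgG mouse 37 and 3 of IgG mouse 49. A rich region of IgG mouse 37 also had negative controls above 10 times the median of its site.

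Before any division by the negative controls, the mean log2 count over all mice was higher in rich regions for 27 of 28 probes, of which 9 passed the test. The nuclear housekeeper Histone H3 had a higher mean log2 count in rich than in poor regions in 6 of 7 mice, by 0.66 ± 0.51 (SD, n = 7, exact sign-flip permutation p = 0.0312, two-sided), and the nuclei count itself, which defined the split, differed by 0.75 ± 0.26 on the log2 scale. In the single mice the Histone H3 difference in log2 count was 0.61 in IgG mouse 29, 1.17 in IgG mouse 37 and 0.53 in IgG mouse 49, and 0.91, −0.11, 1.29 and 0.20 in 3D6 mice 72, 77, 81 and 83. In counts the nuclear protein was thus higher in rich regions of all mice but mouse 77. As a log2 ratio to the negative controls the exception was IgG mouse 37, at −0.16, and mouse 77 stood at 0.06. The ribosomal protein S6 gave more counts in rich regions in 7 of 7 mice, by 0.58 ± 0.32 (exact p = 0.0156, the smallest that 7 mice can give). Without normalization, limma with the Benjamini-Hochberg adjustment over 28 probes called 9 of 28 probes (32.1%) higher in rich regions over all mice and 0 lower. These 9 were CD8a, PD-L1, fibronectin, CD11b, CD45, F4/80, Ki-67, Histone H3 and S6, with differences in log2 count from 0.53 for PD-L1 to 0.76 for fibronectin and adjusted p from 0.00988 to 0.0416. The log2 count was higher in rich regions in each of the 7 mice for 9 of 28 probes (32.1%), of which CD8a, fibronectin, CD11b, CD45, F4/80, Ki-67 and S6 were called and GZMB and MHC II were not.

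The negative controls differed between the groups, and they are the denominator of every ratio that follows. Their mean log2 count was higher in rich than in poor regions by 0.33, 1.33 and 0.48 in IgG mice 29, 37 and 49. The differences were 0.19, −0.17, 0.15 and −0.38 in 3D6 mice 72, 77, 81 and 83. All 3 IgG values lay above all 4 3D6 values, with a difference between the groups of −0.77 (exact permutation over 35 splits, p = 0.0286, the smallest that the design allows). Over all mice the difference was 0.28 ± 0.55 (exact sign-flip p = 0.25) and that of the total count 0.43 ± 0.57 (exact p = 0.0781). Without the high-background region of IgG mouse 37, the difference of the negative controls over all mice was 0.20.

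After division by the background, taken as the geometric mean over the 3 negative controls, and log2 transformation, 0 of 28 probes (0%) passed an adjusted p of 0.05 over all 7 mice in limma, and 5 had an unadjusted p under 0.05. Higher in rich regions among these were fibronectin, an adhesive matrix glycoprotein made by fibroblasts and deposited in injured vessels (0.48, SE 0.17), F4/80, a macrophage surface protein (0.45, SE 0.17), Ki-67, a nuclear protein of cycling cells (0.39, SE 0.17), and Histone H3 (0.38, SE 0.17). CD14, the monocyte and macrophage co-receptor for lipopolysaccharide, was lower (−0.52, SE 0.17), with the other 2 lowest probes being FOXP3 at −0.12 and PanCk at −0.09. The adjusted p of CD14, fibronectin and F4/80 was 0.118. Of all 28 differences, 24 were above 0, with a median of 0.12. CD11b alone was higher in rich regions in each of the 7 mice (1 of 28, 3.57%), by 0.01 to 0.80. An adjusted p above 0.05 does not show that rich and poor regions were alike. CD14 was called without IgG mouse 49, at −0.68 (limma adjusted p = 0.0159). That mouse was the only one with CD14 higher in rich regions, by 0.40, so its omission favours a call and is no separate support. No probe was called when any other mouse was left out.

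In the 3D6 mice, the ratios of fibronectin, F4/80, Histone H3, Ki-67, CD45, CD8a, S6, CD11b and MHC II rose in the nuclei-rich regions. Limma called 9 of 28 probes (32.1%) higher in rich than in poor regions and 0 lower, with 12 at an unadjusted p under 0.05. The largest differences were those of fibronectin, at 0.82 (SE 0.15, adjusted p = 0.00456), and F4/80, at 0.81 (SE 0.14, adjusted p = 0.00421). Next came Histone H3 at 0.63 (SE 0.18, adjusted p = 0.0314), Ki-67 at 0.59 (SE 0.16, adjusted p = 0.0243) and CD45, the phosphatase carried by all leukocytes, at 0.59 (SE 0.13, adjusted p = 0.00964). CD8a, the co-receptor of cytotoxic T cells, differed by 0.54, S6 by 0.51, the myeloid integrin CD11b by 0.46 and MHC II, which presents antigen to helper T cells, by 0.40, with adjusted p from 0.0427 to 0.0440. Of these, Ki-67 lay below the negative controls over the 82 regions, at 0.926 times, and MHC II and CD8a just above, at 1.10 and 1.24 times. In all, 12 of 28 probes (42.9%) were higher in rich regions in each of the 4 3D6 mice, the other 3 being CD3e, CD11c and BatF3.

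**Figure D2:**
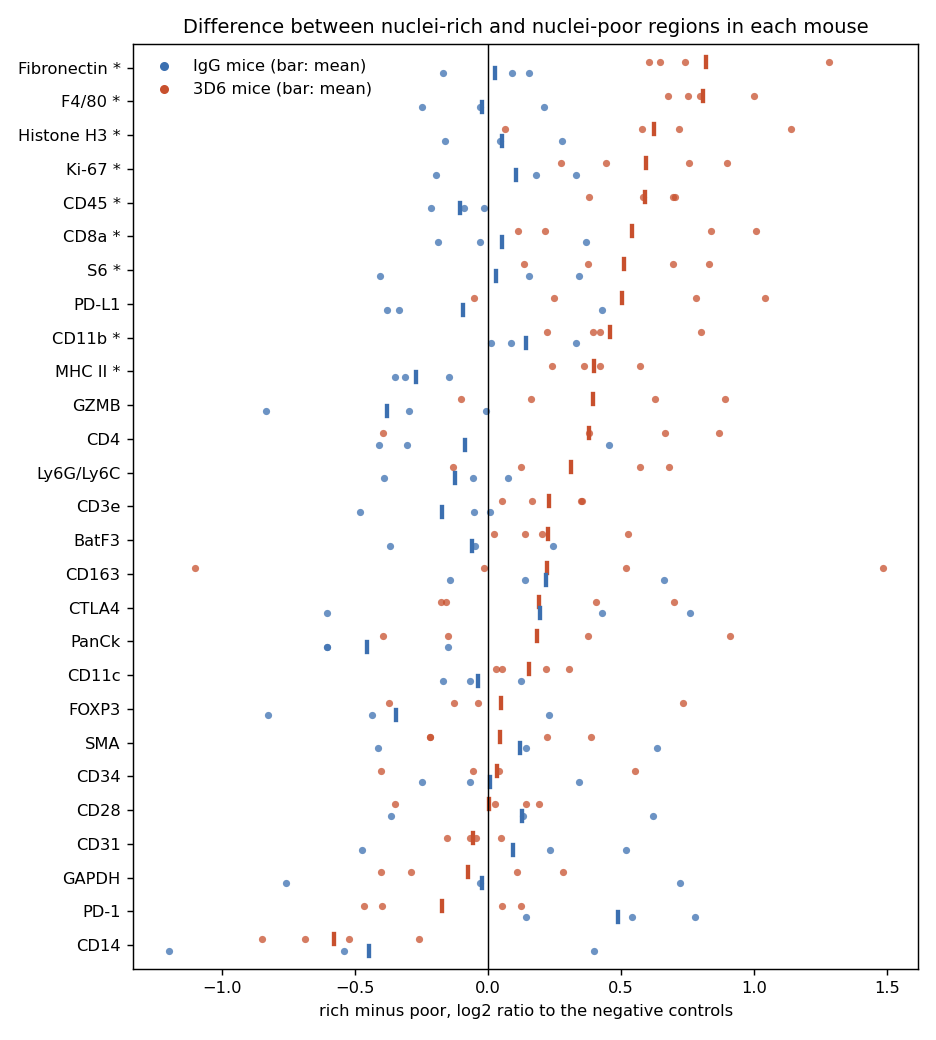
Rich minus poor difference of the log2 ratio to the negative controls for 27 probes, with a point for each IgG mouse (blue, n = 3) and each 3D6 mouse (orange, n = 4), and a bar at the mean of each group. Asterisks mark the 9 probes called in the 3D6 mice (limma, adjusted p under 0.05), and for F4/80, CD45, fibronectin and MHC II the 3D6 points lie to the right of all IgG points.

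The mean log2 ratio of F4/80 in poor regions was 2.36, 2.44, 1.82 and 2.44 in 3D6 mice 72, 77, 81 and 83. In the rich regions of the same mice it was 3.11, 3.24, 2.49 and 3.44. Every 3D6 mouse thus gained between 0.68 and 1.00, and mouse 81 was the lowest in both classes. Single regions overlapped, since in mouse 77 the poor regions reached 3.75 and the rich ones began at 1.77. In IgG mice 29, 37 and 49 the ratio of F4/80 was 1.66, 0.95 and 0.97 in poor regions and 1.87, 0.70 and 0.94 in rich ones. The poor regions of the IgG mice and the rich ones differed by −0.25 to 0.21, and all IgG values lay below those of the rich regions of the 3D6 mice.

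Fibronectin stood at log2 ratios of 4.23, 3.78, 2.24 and 4.85 in the poor regions of 3D6 mice 72, 77, 81 and 83, and at 4.88, 4.52, 3.52 and 5.45 in their rich regions. The gain was largest in mouse 81, at 1.28, where the starting level was lowest, and lay between 0.61 and 0.74 in the others. In the IgG mice fibronectin ran from 1.40 to 1.69 in poor regions and from 1.35 to 1.85 in rich ones, with differences of −0.17, 0.15 and 0.09 in mice 29, 37 and 49. The classes of the IgG mice overlapped, and every class mean of the 3D6 mice was above every class mean of the IgG mice.

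CD45 rose from 3.73, 3.92, 3.01 and 4.41 in poor regions to 4.44, 4.51, 3.71 and 4.80 in rich regions of 3D6 mice 72, 77, 81 and 83. In the IgG mice it was 1.44, 1.90 and 1.66 in poor regions and 1.35, 1.88 and 1.44 in rich regions of mice 29, 37 and 49, lower in the rich regions of each. CD11b differed by 0.80, 0.42, 0.22 and 0.39 in the 3D6 mice, in the same order, and by 0.33, 0.09 and 0.01 in the IgG mice. For CD11b the groups overlapped, since mice 29 and 81 crossed, whereas for CD45 they did not. MHC II differed by 0.24, 0.42, 0.36 and 0.57 in 3D6 mice 72, 77, 81 and 83, and by −0.15, −0.31 and −0.35 in IgG mice 29, 37 and 49.

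**Figure D3:**
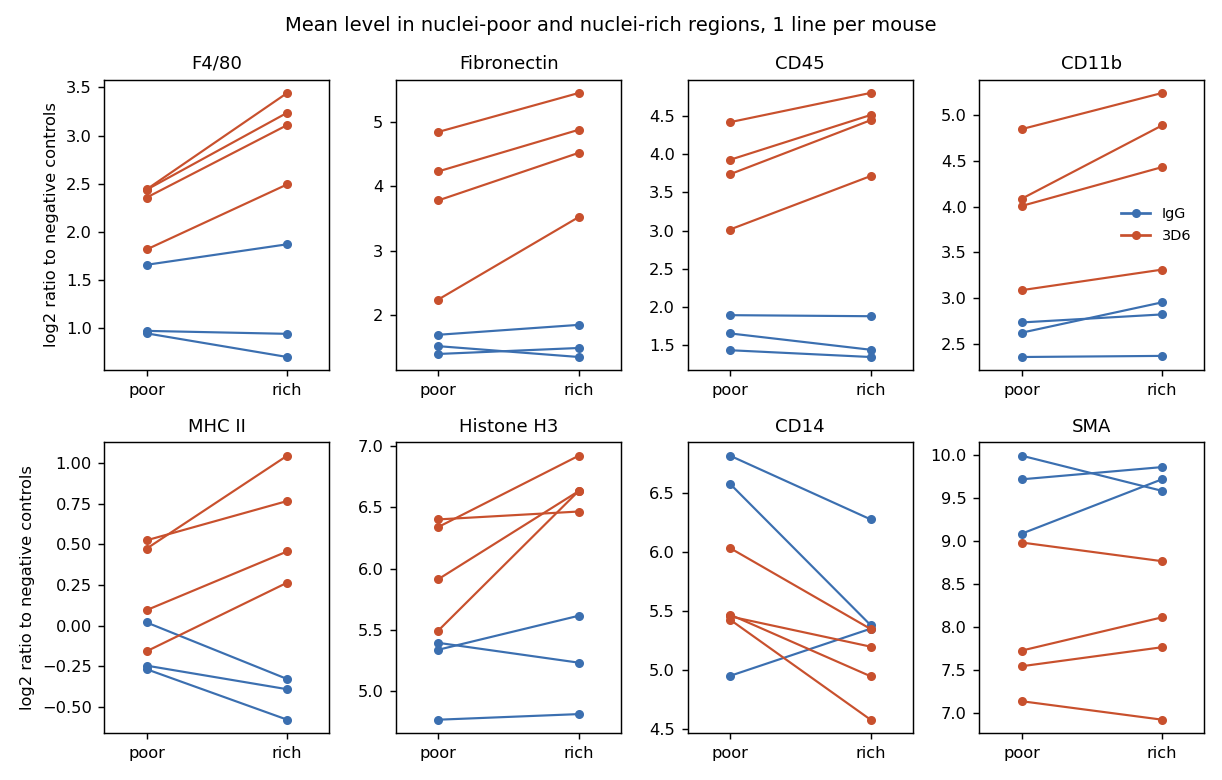
Mean log2 ratio to the negative controls in nuclei-poor and nuclei-rich leptomeningeal regions for 8 proteins, 1 line per mouse (blue IgG, n = 3, orange 3D6, n = 4), each panel on its own vertical scale. F4/80, fibronectin, CD45, CD11b and MHC II slope upward in all 4 3D6 mice, CD14 slopes downward in all 4, and SMA separates the groups in both classes with no common slope.

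CD14 had the opposite sign to F4/80 and CD11b. In the 3D6 mice its log2 ratio was lower in rich regions of each animal, by −0.69, −0.52, −0.85 and −0.26 in mice 72, 77, 81 and 83 (mean −0.58, SE 0.23, limma adjusted p = 0.0814). This SE draws on the spread of both groups, with an SD of 0.80 in IgG and 0.25 in 3D6 mice. In a limma fit of the 3D6 mice alone, chosen after the data were seen, CD14 was called lower (SE 0.15, adjusted p = 0.0318). CD14 was the single probe of 28 (3.57%) that was lower in rich regions of all 4 3D6 mice. Its log2 count was lower by nearly the same amount in each of these mice, between −0.70 and −0.50. In IgG mice 29, 37 and 49 the differences of the ratio were −0.54, −1.20 and 0.40, so mouse 49 stood apart. Divided by the housekeepers, the 3D6 difference was −0.93 (adjusted p = 0.00571). GAPDH, the cytoplasmic housekeeper, did not follow the nuclei in the 3D6 mice either. Its log2 count was higher in rich regions by 0.30 to 1.21 in all 3 IgG mice and lower by −0.22 to −0.06 in all 4 3D6 mice, a difference between the groups of −0.82 (exact permutation p = 0.0286). Its ratio to the negative controls differed by −0.02 in the IgG and by −0.07 in the 3D6 animals.

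The count of 9 probes in the 3D6 mice depended on single animals and on the scale. It fell to 2 without 3D6 mouse 72, to 2 without mouse 81, to 3 without mouse 83 and to 5 without IgG mouse 29, which enters through the shared spread, and F4/80 and fibronectin were called in each of these fits. It was 0 in log2 counts, where 7 probes had an unadjusted p under 0.05, 1 (CD14, lower) after division by the housekeepers, and 0 without the regions that carry the warning for few nuclei, which leaves 5 mice and 1 of them IgG.

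In the IgG mice limma called 0 of 28 ratios (0%), and 1 had an unadjusted p under 0.05. This was PD-1, the inhibitory receptor of activated T cells, which was higher in rich regions of all 3 mice, by 0.78, 0.14 and 0.54 in mice 29, 37 and 49 (mean 0.49, SE 0.19, adjusted p = 0.697), at a level of 0.512 times the negative controls. Together with CD11b it made 2 of 28 probes (7.14%) that were higher in all 3, and 4 of 28 (14.3%), CD45, PanCk, GZMB and MHC II, were lower in all 3. The median of all 28 differences was −0.02. Without normalization most probes were called in the IgG mice. Of 28 log2 counts, 22 (78.6%) were higher in rich regions in all 3 mice, limma called 19 (67.9%) higher and 0 lower, and the median difference was 0.69, the ratio median plus the 0.72 by which the negative controls differed. In the 3D6 mice 10 log2 counts (35.7%) were higher in all 4 mice and the median was 0.22.

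The difference between the groups was then tested itself. In limma 4 of 28 probes (14.3%) had a larger rich minus poor difference in 3D6 than in IgG mice: F4/80 by 0.83 (SE 0.21), fibronectin by 0.79 (SE 0.23), CD45 by 0.70 (SE 0.20) and MHC II by 0.67 (SE 0.20), each with an adjusted p of 0.0486, and 7 had an unadjusted p under 0.05. None was smaller past the threshold. For each of these 4, and for CD3e, all 4 3D6 mice lay above all 3 IgG mice (5 of 28, 17.9%), and for PD-1 all lay below (1 of 28, 3.57%, difference −0.66). The exact permutation p of each of the 4 was 0.0286, the smallest for 3 mice against 4. With the read-out run as a term, since each run held mice of both groups, 0 of 28 were called and the 4 differences were 0.66 to 0.82 (adjusted p = 0.1246 each), and with single regions fitted and the mouse as a block also 0 (adjusted p from 0.0551 to 0.110).

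This difference was called in the ratios and was not called in the counts, where that does not show that the groups were alike. In log2 counts F4/80 was higher in rich regions by 0.54, 1.09 and 0.45 in IgG mice 29, 37 and 49, and by 0.94, 0.63, 0.83 and 0.62 in 3D6 mice 72, 77, 81 and 83. The group means were 0.69 ± 0.34 (n = 3) and 0.76 ± 0.16 (n = 4), which overlap. The group difference in log2 counts was 0.06 for F4/80, 0.03 for fibronectin, −0.07 for CD45 and −0.10 for MHC II, and the smallest adjusted p of these was 0.887. For CD45 and MHC II the direction thus turned. By construction the distance between both scales is the group difference of the negative controls, −0.77, which also moves the median of all 28 probes from 0.42 to −0.35, and the part of unspecific binding in it was not tested. In log2 counts 1 of 28 probes (3.57%) was called in this contrast, PD-1, smaller in 3D6 mice by −1.43 (SE 0.35, adjusted p = 0.0243). On ratios, leaving out any of the 7 mice brought the count of 4 to 0, with adjusted p of the 4 proteins from 0.0757 to 0.240, and so did leaving out the high-background region, with an adjusted p of 0.0639 for each of the 4.

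**Figure D4:**
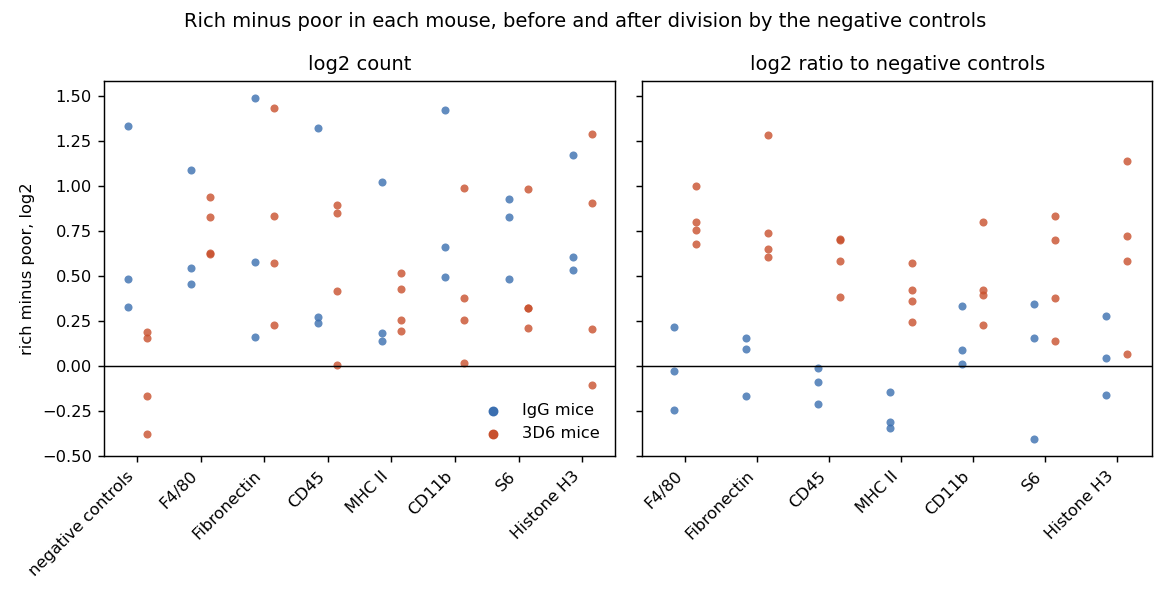
Rich minus poor difference in each mouse for 7 proteins as log2 counts (left, with the mean of the 3 negative controls) and as log2 ratios to the negative controls (right), IgG mice in blue (n = 3) and 3D6 mice in orange (n = 4). F4/80, fibronectin, CD45 and MHC II overlap between the groups on the left and separate on the right, where the IgG values have moved down by their negative controls.

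By cell type, most myeloid proteins had a mean difference above 0 in the 3D6 mice, and few were called. Of 7 (CD11b, F4/80, CD14, CD163, CD11c, Ly6G/Ly6C and BatF3), 6 were above 0, with CD14 below. Of these 7, 2 were called higher and the median was 0.23. Over all 28 probes 24 were above 0, 9 were called and the median was 0.27. CD163, the hemoglobin scavenger receptor of perivascular macrophages, ran from −1.10 in 3D6 mouse 72 to 1.48 in mouse 83, the widest span of all. Of 8 T cell proteins (CD3e, CD4, CD8a, CD28, CTLA4, PD-1, FOXP3 and GZMB), CD8a alone was called, and the median was 0.21. CD4, the helper T cell co-receptor, differed by 0.67, −0.39, 0.87 and 0.38 in 3D6 mice 72, 77, 81 and 83, and GZMB, the granzyme of cytotoxic granules, by −0.10, 0.89, 0.16 and 0.63. Neither kept its direction over the 4 mice. CD28, the costimulatory receptor, stood at 0.00 ± 0.25 and CTLA4, its inhibitory counterpart, at 0.19 ± 0.43 (SD, n = 4). The 3 checkpoint proteins (CTLA4, PD-1 and PD-L1) had 0 calls and a median of 0.19. The antigen presentation list (MHC II, CD11c and BatF3) had 1 call and a median of 0.23, and the granulocyte and monocyte antigen Ly6G/Ly6C differed by 0.31 ± 0.38.

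As ratios, none of the 3 vessel wall proteins was called in either group or over all mice, whereas in log2 counts all 3 were called higher in rich regions of the IgG mice, SMA by 0.84, CD31 by 0.81 and CD34 by 0.73 (limma adjusted p from 0.0286 to 0.0357). The ratio of SMA differed between rich and poor regions by 0.22, −0.22, 0.39 and −0.22 in 3D6 mice 72, 77, 81 and 83, and by 0.14, 0.63 and −0.41 in IgG mice 29, 37 and 49. CD31 differed by −0.05 ± 0.08 in 3D6 mice and the progenitor and endothelial protein CD34 by 0.03 ± 0.40. Over all 7 mice the estimates were 0.08 for SMA, 0.01 for CD31 and 0.02 for CD34, with 0 of 3 called and a median of 0.02 against 0.12 over all probes. The 95% confidence interval of SMA ran from −0.26 to 0.42, and differences within it could not be resolved with 7 mice. Of the epithelial keratins (PanCk), 0.19 ± 0.58 was found in the 3D6 mice.

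Regions of the same class were then compared between 3D6 and IgG mice. A class is cut at each mouse's own median, so it does not match nuclei between the groups. The median nuclei count of rich regions was 103, 19 and 19.5 in IgG mice 29, 37 and 49. It was 121.5, 25, 44 and 43 in 3D6 mice 72, 77, 81 and 83. Whether the treatment difference depended on the number of nuclei was therefore not tested. Among nuclei-rich regions 8 of 28 probes (28.6%) were higher in 3D6 mice and 1 (3.57%) was lower. Fibronectin was higher by 3.03 (SE 0.44, adjusted p = 0.00129), CD45 by 2.81 (SE 0.33, adjusted p = 0.000507), F4/80 by 1.90, CD11b by 1.75, S6 by 1.52, Histone H3 by 1.44, GZMB by 1.43 and MHC II by 1.07, the last 6 with adjusted p from 0.00636 to 0.0163. SMA was lower by −1.83 (SE 0.42, adjusted p = 0.0115). Among nuclei-poor regions 3 of 28 (10.7%) were higher, CD45 by 2.11, fibronectin by 2.24 and CD11b by 1.43, and 1 (3.57%) was lower, again SMA, by −1.75 (SE 0.46, adjusted p = 0.0222). The adjusted p of CD45 was 0.00410, that of fibronectin 0.0160 and that of CD11b 0.0347. F4/80 was at 1.07 in poor regions (adjusted p = 0.0557). In log2 counts SMA differed by −2.83 in rich and −1.98 in poor regions. Its mean log2 ratios were 9.72 ± 0.14 in rich and 9.60 ± 0.47 in poor regions of IgG mice against 7.89 ± 0.77 and 7.84 ± 0.80 in 3D6 mice. CTLA4 was at −0.87 in rich and −0.86 in poor regions (limma adjusted p = 0.0768 in the latter), and CD28 at 1.11 and 1.23, with no call in either class. In log2 counts CTLA4 was lower in rich regions of 3D6 mice by −1.86 (limma adjusted p = 0.0139) and stood at −1.09 in poor ones (adjusted p = 0.0822), and CD28 stood at 0.11 and 1.01. GZMB differed by 1.43 in rich and 0.65 in poor regions, and the difference of these differences was 0.77 (SE 0.30, limma adjusted p = 0.126).

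**Figure D5:**
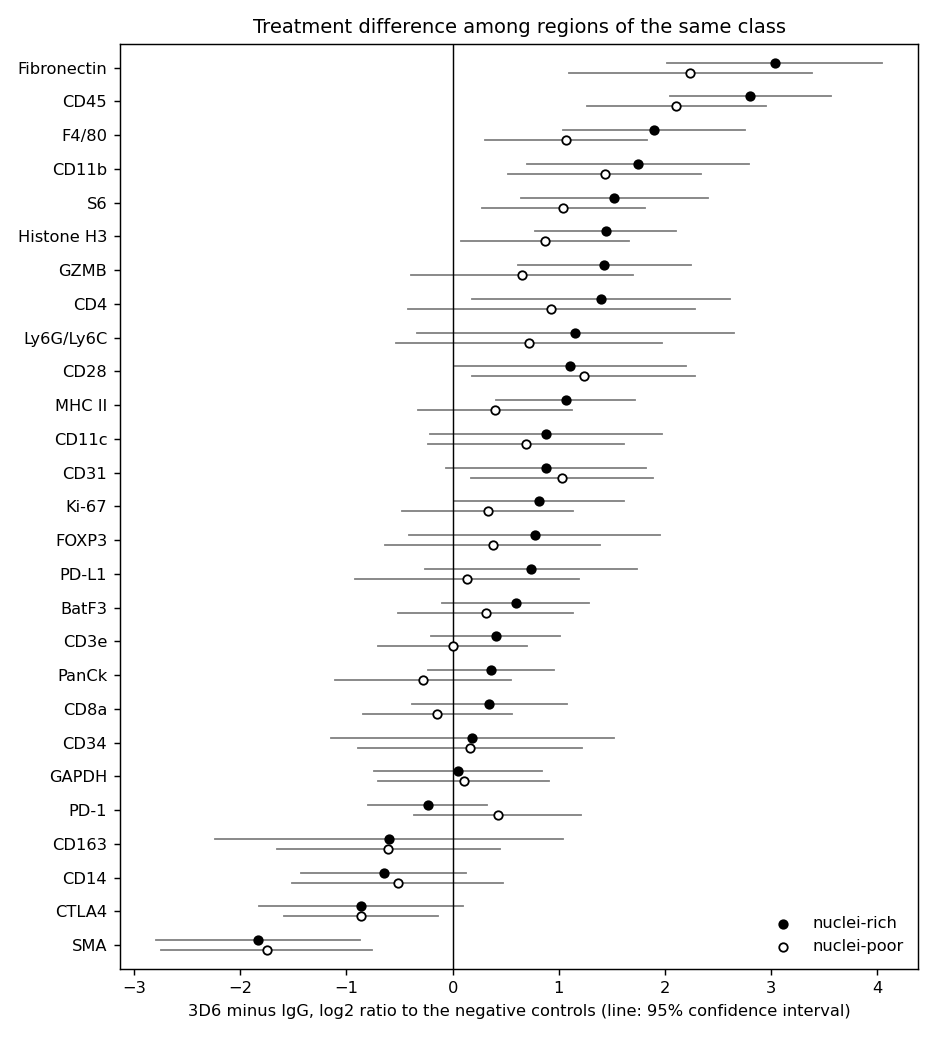
3D6 minus IgG difference of the log2 ratio to the negative controls for 27 probes, in nuclei-rich (filled points) and nuclei-poor regions (open points). Lines are 95% confidence intervals from limma for 4 3D6 and 3 IgG mice. Classes are cut within each mouse, so nuclei counts are not matched between the groups. Fibronectin, CD45 and F4/80 lie further from 0 in rich than in poor regions, while SMA, CTLA4 and CD14 lie at nearly the same place in both, a pattern of the ratios that log2 counts do not show.

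In the rich regions the count of 9 calls was 5 in log2 counts (2 higher, 3 lower) and 6 after division by the housekeepers (2 higher, 4 lower). In log2 counts the 2 higher were fibronectin and CD45, and the 3 lower were SMA, CTLA4 and CD14. The other probes called higher as ratios were not called in log2 counts. Among them CD11b stood at 0.75, S6 at 0.53, Histone H3 at 0.45, GZMB at 0.43 and MHC II at 0.07. In the poor regions the count of 4 was 1 without IgG mouse 29, 2 without IgG mouse 49 and 1 without 3D6 mouse 72. There the split of 3 higher and 1 lower became 2 higher and 4 lower after division by the housekeepers. Without the regions of few nuclei 1 IgG mouse is left against 4 3D6 mice in both classes, so no count of calls is given. Without normalization the median of all 28 treatment differences moved by −0.99 in rich and −0.23 in poor regions. The log2 counts of fibronectin then differed by 2.04 in rich and 2.01 in poor regions, those of CD45 by 1.81 and 1.88, those of F4/80 by 0.90 and 0.84 and those of CD14 by −1.65 and −0.75.

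On penetrating vessels, which leave the surface and enter the cortex, regions were split in the same way at each mouse's own median, and 79 of 84 regions entered. Histone H3 was called there over all mice (0.73, SE 0.19, limma adjusted p = 0.0353), the single call of 28 probes (3.57%). The SD over the 3D6 mice was 0.84 for F4/80, 1.11 for fibronectin and 0.61 for CD45, against 0.14, 0.31 and 0.15 in the leptomeninges, while for CD163 it was 0.57 against 1.08, and the spread was not tested. F4/80 differed by 0.75, −1.14, 0.33 and 0.45 in 3D6 mice 72, 77, 81 and 83, fibronectin by 1.50, −1.18, 0.51 and 0.54, and CD45 by 0.70, −0.65, 0.48 and 0.48. Mouse 77 thus went against the other 3 on penetrating vessels and with them in the leptomeninges. When the rich minus poor differences of both sites were compared within mice, 0 of 28 probes (0%) were called and 3 had an unadjusted p under 0.05, all with a lower value in the leptomeninges: CD14 by −0.66, SMA by −0.64 and CD31 by −0.59, with adjusted p of 0.223, 0.223 and 0.256. SMA was called without 3D6 mouse 72, at −1.08 (limma adjusted p = 0.00481). That mouse lay furthest in the opposite direction, with 0.22 in the leptomeninges and −1.76 on penetrating vessels, so its omission favours a call. No probe was called when any other mouse was left out. On penetrating vessels SMA was higher in rich regions by 0.69 to 2.37 in all 3 IgG mice and differed by −1.76, 0.90, −0.15 and 1.95 in 3D6 mice 72, 77, 81 and 83. The 2.37 was that of IgG mouse 37. In this mouse 5 of 12 penetrating regions had negative controls above 10 times the median of their site. The warning for few nuclei was carried there by 1 rich and 6 poor regions.

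Over single regions, with the mean of each mouse subtracted, the correlation of a log2 ratio with the log2 nuclei count is given as a description only, since regions of a mouse share a section and the nuclei ranges differ between mice. Over the 48 regions of the 3D6 mice Pearson's r was 0.36 for F4/80, 0.35 for CD45, 0.32 for fibronectin, 0.29 for S6, 0.28 for Ki-67 and 0.12 for Histone H3. At the other end it was −0.41 for CD14 and −0.34 for GAPDH. Over the 34 regions of the IgG mice the same proteins gave 0.09 for F4/80, −0.01 for CD45, 0.25 for fibronectin, 0.22 for S6, 0.03 for Ki-67 and 0.28 for Histone H3, with −0.15 for CD14 and 0.00 for GAPDH. F4/80 was positive in each of the 4 3D6 mice, with r from 0.36 to 0.45 over 12 regions each, and so were CD45 and fibronectin. The other proteins named did not keep their sign. In mouse 72 r was −0.07 for S6 and −0.27 for Histone H3, and in mouse 77 it was −0.02 for Ki-67. In mouse 83 it was 0.16 for CD14 and 0.54 for GAPDH. Fitted as a slope per doubling of nuclei within each mouse, in place of the split, 0 of 28 probes were called in the 3D6 mice, where F4/80 had a slope of 0.71 and fibronectin of 0.56, both with an adjusted p of 0.123.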

How the data were processed

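Values of 166 regions (7 mice) were deposited as GeoMx counts per antibody tag, which the authors had multiplied by calibration and positive-control factors, so they are not whole numbers. The nuclei counts per region and the positive-control factor, a linear ratio, come from the deposited summary. Regions were split at each mouse's leptomeningeal median. Log2 ratios to the geometric mean of 3 negative controls were averaged per class and mouse, and the difference per mouse was fitted with limma 3.58.1 (R 4.3.3, statmod 1.5.0), two-sided, with Benjamini-Hochberg adjustment over 28 probes at 0.05. Values of one measure were tested by exact permutation, by 128 sign flips of 7 mice or 35 splits of 3 against 4. The fits were tested on simulated data. Mice, not regions, were the replicates. Total counts ran from 3665 to 90845 per region, and the 7 targets below the negative controls are the least precise. Full values were given for each probe past the threshold in any comparison, the 3 largest differences in each direction over all mice, the housekeepers and a set of proteins on which the study is focused. The regions, lists and comparisons were chosen with earlier results of these data known. Alternatives covered scaling, pseudocount, filter on low values, class definition, regions or mice left out, read-out run, moderation and the region as unit with the mouse as a block. Python 3.11.15, numpy 2.4.6, pandas 2.3.3 and matplotlib 3.10.9 were used. The values of 1 target, which entered every fit and count, are not reported here.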

Additional observations from a re-analysis of the deposited data

Results flagged for a closer look

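In a group of 4 mice, a value was picked out when its gap to the nearest other mouse was most of the whole range of the group (Dixon's test at the 95% level, which chance passes in about 5% of groups). Of 95 groups tested, 3 passed. The mean log2 ratio of F4/80 in nuclei-poor regions was 1.82 in 3D6 mouse 81 against 2.36 to 2.44 in the other 3D6 mice. That of CD14 in nuclei-poor regions was 6.03 in 3D6 mouse 72 against 5.43 to 5.47. The rich minus poor difference of the S6 log2 count was 0.98 in 3D6 mouse 81 against 0.21 to 0.32.

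The rich minus poor difference itself differed between 3D6 and IgG mice for 4 proteins, with a limma adjusted p of 0.0486 each: F4/80 by 0.83, fibronectin by 0.79, CD45 by 0.70 and MHC II by 0.67. It also differed, by exact permutation with p = 0.0286, for the log2 count of the negative controls, by −0.77, and for that of GAPDH, by −0.82. In all of these the 3D6 and IgG mice did not overlap.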

How the results depend on the processing

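Over all mice the count of 0 called probes was 1 after division by the housekeepers, 9 without normalization, 3 with the filter on low values, and 0 to 1 when a mouse was left out. In IgG mice it was 19 without normalization and 0 to 0 with a mouse left out. In 3D6 mice the count of 9, all higher, was 0 without normalization and 1, lower, after division by the housekeepers. It was 3 with medians over regions, 2 with 4 regions at each end, 0 for the slope and 2 without the mice of run 3. With the group fitted alone it was 5, of which 4 were higher and 1, CD14, was lower. With a mouse left out it was 2 to 10, with 1 lower call without IgG mouse 37 and 1 without IgG mouse 49. The last 2 fits before that range, without run 3 and each group alone, were chosen after seeing the data.

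The 4 differences between 3D6 and IgG mice became 0 after division by the housekeepers, with medians, with a pseudocount of 1 and with 4 regions at each end. They also became 0 without high-background regions, for the slope, with the run as a term and without run 3. With each region as unit and the mouse as a block the count was 0, and without normalization it was 1. The range with a mouse left out was 0 to 0. Between the sites, 0 became 1 without run 3 and 0 to 1 with a mouse left out. Among rich regions the 9 treatment calls were 5 without normalization, 4 without run 3 and 8 to 10 with a mouse left out. Among poor regions the 4 were 2 with 4 regions at each end, 0 without moderation and 0 without run 3. With the mouse as a block they were 7, and with a mouse left out 1 to 6. Without low-nuclei regions 1 IgG mouse is left against 4 3D6 mice, so no count is given for the comparisons between the groups.

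As slopes, the negative controls were at −0.0924 and the total count at −0.0379, against 0.28 and 0.43, which ran from 0.10 to 0.39 and from 0.24 to 0.52 with a mouse left out. Over all mice PanCk turned to 0.19 without normalization, 0.0467 as a slope and 0.0768 without run 3, and FOXP3 to 0.16 without normalization and 0.13 without low-nuclei regions. Between the groups CD45 turned to −0.0701 and MHC II to −0.101 without normalization. Apart from the scalings and omissions, whose construction is given, the cause was not tested. Of 691 refitted values for single proteins, 453 kept direction and side of the threshold, 223 lost the call, 8 gained it and 7 turned. For the difference between the groups 14 of 87 were kept, 71 lost the call and 2 turned. Within the 3D6 mice 105 of 200 were kept and 95 lost the call. Over all mice 123 of 136 were kept, where no probe was called at first. Counting regions at the median as rich could change nothing, since no leptomeningeal region lay there, and its refits count as kept. Refits without low-nuclei regions are included.

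No paired analysis was possible because IgG and 3D6 mice share no replicate numbers. The read-out run, which both groups share, was fitted as a term instead. Rich and poor regions are paired within each mouse by construction. With 3 mice an exact test within the IgG group cannot go below 0.25.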
